A study of Mus musculus with 6 samples.

Results

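The carbonic anhydrase family was examined in mouse liver on 2 diets through 10 genes: Car14, Car4, Car9, Car5a, Car5b, Car1, Car3, Car2, Car13 and Car8. They are 10 of 16 carbonic anhydrase genes measured and of 19938 genes in all. They were taken as a named family in which Car14 and Car1 were listed because they were much lower in this same comparison of diets, so the differences of all 10 are given as a description, without p-values, and support nothing. For each gene the probe set annotated to that gene alone was used. Each of the 16 carbonic anhydrase genes had 1 such probe set.

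Total RNA from livers of male mice of the inbred strain C57BL/6 was hybridised to 6 Affymetrix Mouse Gene 1.0 ST arrays. Mice of the LE group ate chow with lovastatin, a statin that inhibits HMG-CoA reductase, and with ezetimibe, which blocks uptake of cholesterol from the intestine (3 arrays, named LE1 to LE3); each 100 g of chow held 100 mg of the first and 21 mg of the second. Mice of the CH group ate chow with cholesterol at 1% by weight (3 arrays, named CH1 to CH3). All mice were obtained at 6 weeks of age and spent 1 week on plain chow first; how long the diets lasted is not stated in the labels. The LE diet combines 2 agents, so neither can be told apart from the other, and a chow group that the labels mention is not analysed here. Arrays are labelled as biological replicates but are not tied to named animals, so the spread between them may be partly technical.

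Carbonic anhydrases are zinc enzymes that interconvert carbon dioxide and water with bicarbonate and a proton. The family is divided by where the enzyme sits: in the cytosol, in mitochondria, on the outer face of the plasma membrane, or secreted. Some members have lost the zinc-binding residues and with them the activity. In liver, the mitochondrial form supplies bicarbonate to enzymes that fix it, among them pyruvate carboxylase and carbamoyl phosphate synthetase, and the surface form handles bicarbonate at the hepatocyte membrane.

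The 10 genes did not move as a group. Car14 and Car1 were 2.96-fold and 2.11-fold lower on the LE diet than on the CH diet, Car5b was 1.57-fold higher, and the other 7 differed by less than 1.25-fold. At limma's adjusted p below 0.05 over all genes, 4 of the 10 (Car14, Car1, Car5a and Car3) were lower, where 5.08% of all genes were, and 2 (Car5b and Car2) were higher, where 7.01% of all genes were. The LE arrays lay wholly below the CH arrays for the same 4 genes (14.7% of all genes) and wholly above them for 3, Car5b, Car2 and Car8 (15.9% of all genes), and they overlapped for the other 3. Since the comparison itself was used in choosing the members, nothing is read from these shares. The median log2 difference of the 10 was -0.11, beside -0.0049 for all genes.

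Promoter sequences of RefSeq (build GRCm38.p6, 250 bases before to 50 after a gene's start) were on hand for 5 of the 10 genes: Car14, Car5a, Car5b, Car4 and Car9. Car1, Car2, Car3, Car8 and Car13 had no entry. The promoter of Car14 is shown because that gene had the largest difference, and those of Car5a and Car5b because these mitochondrial enzymes differed in opposite directions. All 3 genes lie on the minus strand and each sequence is given 5′ to 3′ along its gene. Capitals mark matches to the letters searched on both strands, and no 2 matches overlapped.
Car14, chr3:95904636-95904935: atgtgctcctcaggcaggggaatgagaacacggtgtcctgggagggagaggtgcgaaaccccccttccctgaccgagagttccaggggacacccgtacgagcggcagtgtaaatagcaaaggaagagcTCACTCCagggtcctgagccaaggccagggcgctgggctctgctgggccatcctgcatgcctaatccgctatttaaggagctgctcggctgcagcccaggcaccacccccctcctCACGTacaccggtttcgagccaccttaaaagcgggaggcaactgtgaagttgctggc
Car5a, chr8:121944863-121945162: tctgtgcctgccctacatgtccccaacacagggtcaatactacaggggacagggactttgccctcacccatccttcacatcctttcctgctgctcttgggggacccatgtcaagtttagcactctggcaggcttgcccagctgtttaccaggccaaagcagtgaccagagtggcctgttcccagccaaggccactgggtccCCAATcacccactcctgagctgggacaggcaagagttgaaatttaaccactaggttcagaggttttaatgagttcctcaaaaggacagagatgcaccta
Car5b, chrX:164027961-164028260: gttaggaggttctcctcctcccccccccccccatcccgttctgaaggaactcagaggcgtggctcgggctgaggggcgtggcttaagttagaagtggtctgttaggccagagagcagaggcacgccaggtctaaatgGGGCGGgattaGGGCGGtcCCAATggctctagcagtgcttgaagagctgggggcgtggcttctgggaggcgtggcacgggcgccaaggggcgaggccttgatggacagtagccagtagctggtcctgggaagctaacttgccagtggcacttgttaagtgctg

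The letters searched were TCACNCC, the core of the sterol regulatory element, AGGTCA, the hexamer that nuclear receptors such as LXR bind, the TATA box TATAAA, the CCAAT box CCAAT, the GC box GGGCGG and ACGTG, the core of the hypoxia response element. Car14 held TCACNCC starting 122 bases before the gene's start, a match found in 15.6% of the 32851 promoters of the table. It also held ACGTG on the opposite strand, 7 bases before the start, a match found in 19.6% of all promoters. Neither match was particular to Car14. Car9, whose diet difference was -0.04, held TCACNCC 191 bases and ACGTG on the opposite strand 18 bases before its start. Car4 held ACGTG on the opposite strand just after its start. Thus 2 of the 5 promoters on hand held TCACNCC and 3 held ACGTG. Car5a held CCAAT starting 49 bases before its start. Car5b held CCAAT starting 94 bases before its start and GGGCGG starting 113 and 102 bases before it. CCAAT was found in 37.4% of all promoters and GGGCGG in 35.7%. AGGTCA, found in 16.3% of all promoters, and TATAAA, found in 13.6%, had 0 matches in the 3 promoters shown. A match is a description and not a site, and the missing matches say only that these letters are not in these windows. The GC content was 61.0% for Car14, 53.7% for Car5a and 61.7% for Car5b.

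Among the enzymes on the outer face of the plasma membrane, Car14 stood apart. Car14, a transmembrane enzyme of the hepatocyte surface whose active domain faces outward, had intensities of 673, 651 and 767 on LE1, LE2 and LE3, against 2059.9, 2032 and 2081 on CH1, CH2 and CH3. The highest LE array, LE3, was still far below the lowest CH array, so the diets did not overlap. On the log2(intensity + 1) scale, which is used for all differences below, Car14 averaged 9.44 ± 0.13 on the LE diet and 11.01 ± 0.02 on the CH diet (SD, n = 3 each), a difference of -1.56 (SE 0.07). It ranked 6 among all genes by the size of the fall, and -1.64 to -1.52 was its range over the 15 other settings and array sets tried. In this bulk tissue, fewer cells of a type and less RNA per cell cannot be told apart.

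Car4 is an enzyme anchored to the outer face of the plasma membrane and known from capillary endothelium. It had intensities of 120.1, 97.4 and 103 on the LE arrays, against 130.4, 121 and 111 on the CH arrays. LE1 lay within the CH range, so the diets overlapped, and the difference was -0.18 (SE 0.09). Car9, a transmembrane enzyme induced by low oxygen, had intensities of 115, 83.1 and 93.7 on the LE arrays, against 97.5, 108 and 93.1 on the CH arrays. The LE arrays spread on either side of the CH arrays, and the difference was -0.04 (SE 0.12). Its sign turned without LE2 (0.065) and without CH2 (0.019). The probe sets of Car4 and Car9 lay below the median intensity of every array (158 to 163), where differences on this scale are compressed, and no detection call was used.

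**Figure D1:**
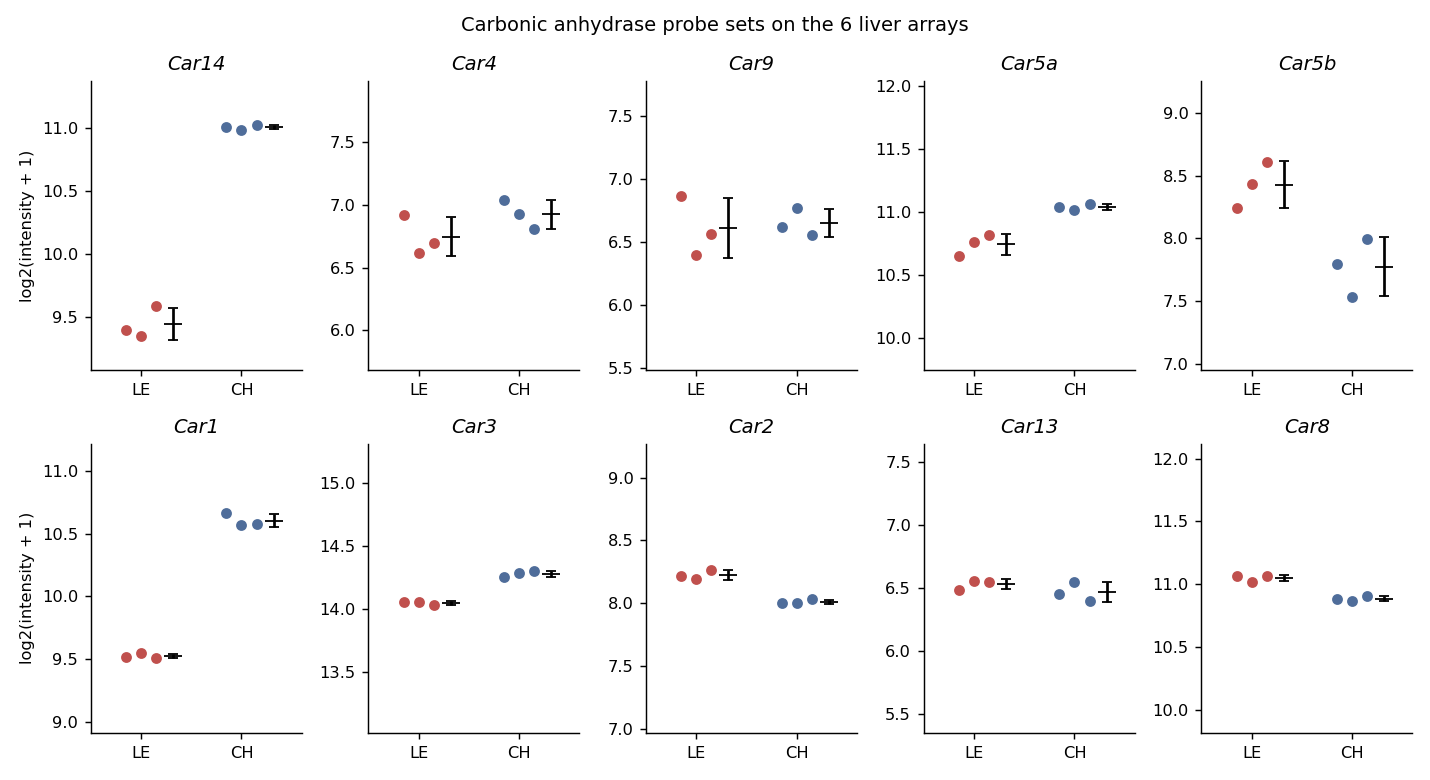
Values of the 10 carbonic anhydrase genes on each array, on the log2(intensity + 1) scale, with LE arrays at the left (red) and CH arrays at the right (blue) of each panel. Bars are mean ± SD (n = 3), each panel spans the same height on the log2 scale around its own centre, and levels of different genes cannot be compared. Car14 and Car1 show the widest gaps, -1.56 and -1.08, and Car4, Car9 and Car13 overlap between diets.

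The mitochondrial enzymes Car5a and Car5b differed in opposite directions. Car5a, the form found mainly in liver, had intensities of 1603, 1739 and 1800.1 on the LE arrays, against 2105, 2072 and 2139 on the CH arrays. Every LE array was below every CH array, and Car5a averaged 10.74 ± 0.09 on the LE diet and 11.04 ± 0.02 on the CH diet (SD, n = 3 each), a difference of -0.30 (SE 0.06).

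Car5b, the mitochondrial form of wider tissue range, had intensities of 301, 345 and 390.1 on the LE arrays, against 222, 184 and 254 on the CH arrays. Every LE array was above every CH array, but the arrays of each diet were scattered: Car5b averaged 8.43 ± 0.19 on the LE diet and 7.78 ± 0.23 on the CH diet (SD, n = 3 each), a difference of 0.65 (SE 0.13). Its SD within diets, 0.21 on the log2 scale, was the widest of the 10 genes, beside a median of 0.08 over all genes. The difference ranged from 0.53 to 0.76 over the alternatives, and Car5b was not past the threshold without LE2 or without LE3, nor Car5a without CH1.

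The genes of the cytosolic enzymes Car13, Car1, Car3 and Car2 follow one another in this order on chromosome 3, with 2 pseudogenes (Gm5843 and Gm16399) and 1 long noncoding RNA gene (Gm41999) between the first and the last in the RefSeq annotation. Their differences were not alike: Car1 was lower by far, Car3 slightly lower, Car2 slightly higher and Car13 overlapped between diets.

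Car1, an enzyme best known from red blood cells, had intensities of 732, 747 and 730.5 on the LE arrays, against 1621, 1517 and 1528 on the CH arrays. The diets were far apart and the arrays of each close together. Car1 averaged 9.53 ± 0.02 on the LE diet and 10.60 ± 0.05 on the CH diet (SD, n = 3 each), a difference of -1.08 (SE 0.05) that ranged from -1.09 to -1.05 over the alternatives. It ranked 25 among all genes by the size of the fall, and it was 1 of 2 members at least 2-fold lower, where 0.145% of all genes were. Both of these members, Car14 and Car1, were listed for being much lower here, so nothing is read from this share or from their ranks.

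Car3, a cytosolic form of low activity that is abundant in muscle, fat and the liver of male rodents, had intensities of 17061, 17023 and 16719 on the LE arrays, against 19555, 19922 and 20235 on the CH arrays. All LE arrays were below all CH arrays, and the spread within diets, an SD of 0.02 on the log2 scale, was the narrowest of the 10 genes. The difference was -0.23 (SE 0.05). Car3 was no longer past the threshold without LE2, CH1, CH2 or CH3.

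Car2, the cytosolic form of very high activity, had intensities of 297, 292 and 307 on the LE arrays, against 255, 256 and 260.4 on the CH arrays. All LE arrays were above all CH arrays, with a difference of 0.22 (SE 0.05), but Car2 was not past the threshold when any 1 array was left out. Car13, a further cytosolic form, had intensities of 88.5, 93.1 and 92.5 on the LE arrays, against 86.5, 92.8 and 83.3 on the CH arrays. These ranges overlapped, with a difference of 0.06 (SE 0.06), and this probe set too lay below the median intensity of every array.

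**Figure D2:**
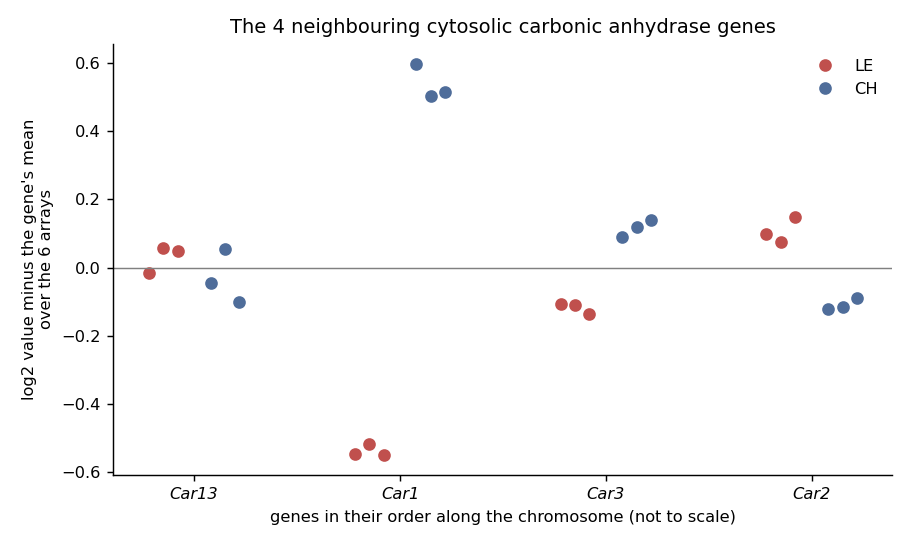
Values of Car13, Car1, Car3 and Car2 on each array (LE red, CH blue) as log2(intensity + 1) minus the gene's mean over the 6 arrays, with the genes in their order along chromosome 3 and distances not to scale. The LE arrays lie below the CH arrays for Car1 (difference -1.08) and Car3 (-0.23), above them for Car2 (0.22), and among them for Car13 (0.06).

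Car8, a member without carbonic anhydrase activity that binds the inositol trisphosphate receptor, had intensities of 2141, 2077 and 2145 on the LE arrays, against 1888, 1865 and 1919.7 on the CH arrays. All LE arrays were above all CH arrays and both diets were tightly grouped, with a difference of 0.17 (SE 0.05) that did not pass the threshold. Car8 passed it in 5 of 15 alternatives.

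None of the 6 other carbonic anhydrase genes passed limma's test over all genes, with 0 higher and 0 lower and a median log2 difference of -0.04; 1 gene, Car11, had an unadjusted p under 0.05 and was called lower by a regularised test built like cyberT. Car11, an inactive member that is secreted, had intensities of 185, 184 and 187 on the LE arrays, against 215, 229 and 200.3 on the CH arrays. These groups did not overlap, and the difference was -0.21 (SE 0.06, adjusted p = 0.0645). Car11 passed in 6 of 15 alternatives, among them the fit without CH3 (adjusted p 0.0236 to 0.171 over all alternatives). The differences were -0.11 (SE 0.07, adjusted p = 0.450) for Car12, a transmembrane enzyme, and -0.08 (SE 0.06, adjusted p = 0.492) for Car15, a membrane-anchored enzyme. The cytosolic Car7 differed by 0.03 (SE 0.06, adjusted p = 0.838), the secreted salivary enzyme Car6 by 0.04 (SE 0.09, adjusted p = 0.830) and the inactive Car10 by -0.01 (SE 0.08, adjusted p = 0.973). All 6 had intensities between 42.8 and 229. Those of Car6, Car10, Car12 and Car15 lay below the median intensity of every array, where differences on this scale are compressed, and no detection call was used.

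**Figure D3:**
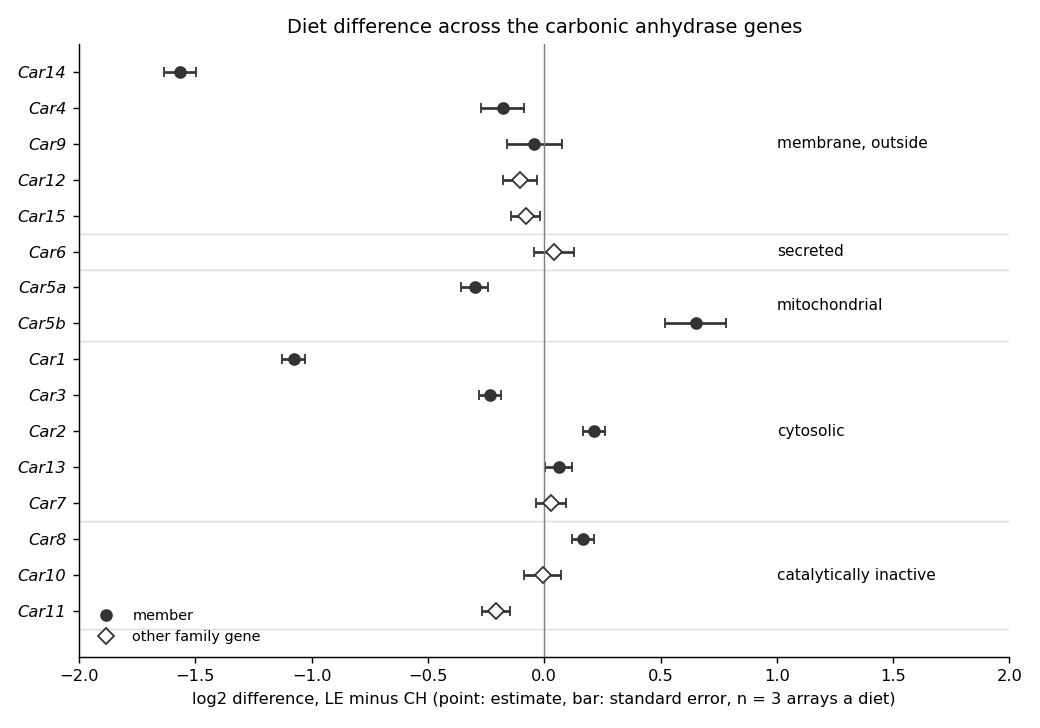
Log2 difference (LE minus CH) of the 16 measured carbonic anhydrase genes, grouped by where the enzyme sits, with bars for the standard error (n = 3 arrays a diet). Filled circles are the 10 genes described here and open diamonds the 6 others. Car14 (-1.56) and Car1 (-1.08) lie farthest to the left and Car5b (0.65) farthest to the right.

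Of 15 measured bicarbonate transporter genes, 3 rose on the LE diet and 0 fell, with a median log2 difference of 0.02 (at an unadjusted p under 0.05, 4 were higher and 1 lower; by the cyberT-like test, 3 and 1). Beside this and every list count below, limma called 7.01% of all genes higher and 5.08% lower. The cyberT-like test called 2068 of 19938 genes higher and 1678 lower. For an unadjusted p under 0.05 no share over all genes is given, so those counts have no background here. Some listed genes were dim: the lowest single intensity was 30.1 for bicarbonate transporters. It was 84.2 for proton exchange and lactate transport and 105.4 for hypoxia-induced genes, both described below. These lay below the median intensity of every array (158 to 163), and no detection call was used. Slc4a2, an anion exchanger that swaps chloride for bicarbonate, had intensities of 701, 701 and 724 on the LE arrays, against 564, 550 and 578 on the CH arrays, and was 1.26-fold higher (log2 0.33, SE 0.05, adjusted p = 0.0037). All LE arrays were above all CH arrays, as they were for the other two genes that rose. The sodium bicarbonate cotransporter Slc4a4 was 1.22-fold higher (log2 0.28, SE 0.05, adjusted p = 0.012), and the sulfate and bicarbonate exchanger Slc26a1 was 1.17-fold higher (log2 0.23, SE 0.04, adjusted p = 0.014). Without CH1 the call of Slc4a4 ended (adjusted p 9.67e-06 to 0.0514 over all alternatives), as did that of Slc26a1 without LE2, CH1 or CH2 (1.65e-05 to 0.0637).

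The 9 enzymes that take up bicarbonate were divided: 2 rose, 3 fell and the median log2 difference was -0.13 (2 higher and 5 lower at an unadjusted p under 0.05, 2 and 6 by the cyberT-like test). The acetyl-CoA carboxylase genes Acaca and Acacb, whose products make malonyl-CoA for fatty acid synthesis and for the control of fatty acid oxidation, were each 2.06-fold higher (log2 1.04, SE 0.05 for each). Acaca had intensities of 3484, 3582 and 3639 on the LE arrays, against 1721, 1689 and 1782 on the CH arrays. In contrast, Pcca, a subunit of propionyl-CoA carboxylase, was 1.35-fold lower on the LE diet (log2 -0.43, SE 0.05, adjusted p = 9.75e-04), and Mccc1, a subunit of the leucine pathway enzyme methylcrotonyl-CoA carboxylase, was 1.31-fold lower (log2 -0.38, SE 0.06, adjusted p = 0.0067). The partner subunit Mccc2, named here after its value was seen, was also lower (log2 -0.34). The 2 mitochondrial enzymes that Car5a is known to serve, carbamoyl phosphate synthetase Cps1 (log2 -0.09) and pyruvate carboxylase Pcx (-0.13), also named after their values were seen, did not pass limma's test but were among the 6 that the cyberT-like test called lower.

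Among 6 measured genes of the urea cycle beyond Cps1, limma called 2 lower and 0 higher (median log2 -0.03; at an unadjusted p under 0.05 and by the cyberT-like test, 2 lower and 1 higher). Otc, which joins carbamoyl phosphate to ornithine, had intensities of 4092, 4123 and 4253 on the LE arrays, against 6259.9, 6308 and 6747 on the CH arrays, a 1.55-fold lower level on the LE diet (log2 -0.63, SE 0.05, adjusted p = 1.91e-04). The diets did not overlap. Arg1, which splits arginine into urea and ornithine, was 1.19-fold lower (log2 -0.25, SE 0.05, adjusted p = 0.013).

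Among 9 genes of gluconeogenesis, limma called 2 lower and 0 higher (median log2 0.01; 3 lower and 1 higher at an unadjusted p under 0.05, 3 and 2 by the cyberT-like test). Fbp1, the fructose bisphosphatase, was lower (log2 -0.27, SE 0.05, adjusted p = 0.012) and the malate dehydrogenase Mdh1 too (log2 -0.24, SE 0.05, adjusted p = 0.021). The call of Fbp1 ended without LE2 or CH1 (adjusted p 5.48e-07 to 0.0595 over all alternatives) and that of Mdh1 without LE1, CH1, CH2 or CH3 (7.19e-06 to 0.0717).

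Of 10 measured genes of proton exchange and lactate transport, 2 rose and 0 fell (median log2 0.10; 4 higher and 0 lower both at an unadjusted p under 0.05 and by the cyberT-like test). The monocarboxylate transporter Slc16a1, which carries lactate together with a proton, had intensities of 1584, 1709 and 1835 on the LE arrays, against 1275, 1263 and 1227 on the CH arrays, and was 1.36-fold higher (log2 0.44, SE 0.06, adjusted p = 0.0034). The sodium and proton exchanger Slc9a7, of organelle membranes, was 1.31-fold higher (log2 0.39, SE 0.08, adjusted p = 0.017), a call that ended without LE2 or CH3 (0.0012 to 0.0649 over all alternatives).

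Car9 belongs to the genes induced by low oxygen, and 15 others of that kind did not share a direction: limma called 2 higher and 2 lower, with a median log2 difference of 0.04. Ndrg1, a stress-induced gene, was 2.91-fold higher (log2 1.54, SE 0.05, adjusted p = 1.38e-06), with intensities of 2157, 2122 and 2167 on the LE arrays, against 771, 699 and 746 on the CH arrays. Pdk1, a kinase that inhibits pyruvate oxidation, was 1.35-fold higher (log2 0.44, SE 0.07, adjusted p = 0.0047). Bnip3, a mitochondrial protein of mitophagy, was 1.20-fold lower on the LE diet (log2 -0.26, SE 0.05, adjusted p = 0.0095), and the oxygen sensor Egln3 was 1.17-fold lower (log2 -0.23, SE 0.05, adjusted p = 0.023). The call of Egln3 ended without LE1, LE2, LE3, CH1 or CH3 (adjusted p 0.0011 to 0.0839 over all alternatives).

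**Figure D4:**
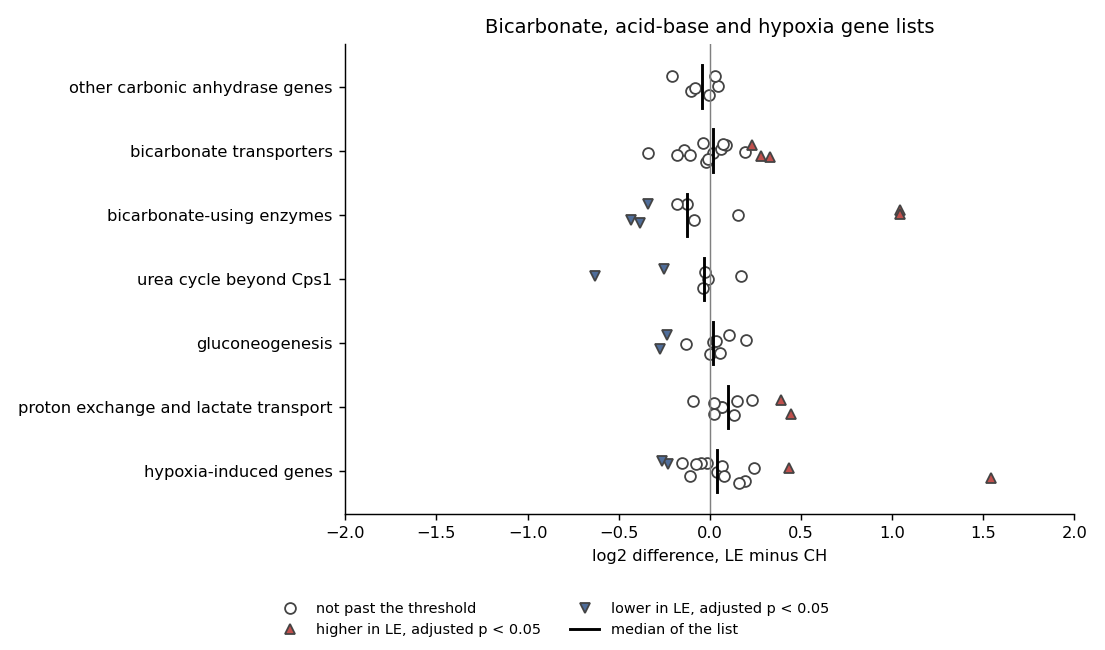
Log2 difference (LE minus CH) of each measured gene in 7 lists, with the median of each list as a vertical line; filled triangles are genes past limma's adjusted p of 0.05 and open circles the others. The 6 other carbonic anhydrase genes are all open, and Ndrg1 (1.54), Acaca and Acacb (1.04 each) lie farthest to the right.

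Cell type markers were read beside these values, and their part in the carbonic anhydrase differences was not tested. Some markers were dim: the lowest single intensity was 33.1 for bile duct, 34.3 for red cell, 38.5 for granulocyte and 38.6 for adipocyte markers. It was 47.0 for muscle markers, 95.5 for genes higher in male liver and 150.8 for macrophage markers. These lay below the median intensity of every array (158 to 163), and no detection call was used. As above, limma called 7.01% of all genes higher and 5.08% lower. The cyberT-like test called more, 2068 of 19938 genes higher and 1678 lower. Counts at an unadjusted p under 0.05 have no background here. Car1 is a red blood cell enzyme, and of 8 measured markers of red blood cells and their precursors, limma called 2 lower and 0 higher (median log2 -0.02), as did the cyberT-like test and an unadjusted p under 0.05. Another 9 listed markers have no value here, among them the 6 globin genes, which are only on probe sets of several genes. The summed intensity of the 8 was 2234 to 2336 on the LE arrays, against 3421 to 3442 on the CH arrays. Alas2, the erythroid enzyme of haem synthesis, made up most of that gap, with intensities of 1497, 1398 and 1445 on the LE arrays, against 2578, 2515 and 2550.0 on the CH arrays, a 1.76-fold lower level on the LE diet (log2 -0.82, SE 0.05, adjusted p = 3.38e-05). The erythroid transcription factor Klf1 was 1.25-fold lower on the LE diet (log2 -0.32, SE 0.08, adjusted p = 0.047), a call that ended when any 1 array other than LE3 was left out (0.0064 to 0.127 over all alternatives). The differences of the other 6 measured red cell markers ran from -0.07 to 0.11, none past the test.

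Of 9 hepatocyte markers limma called 0 (1 higher at an unadjusted p under 0.05, 3 higher and 1 lower by the cyberT-like test; median log2 -0.01), and their summed intensity was 149751 to 155441 on the LE arrays, against 150922 to 153512 on the CH arrays, so the defining genes of the tissue were bright on both diets. The smallest p among them was that of the nuclear receptor Hnf4a (log2 0.11, SE 0.05, adjusted p = 0.200, and 0.0076 to 0.399 over all alternatives). Of 10 pericentral markers, limma called 3 higher and 0 lower (1 lower at an unadjusted p under 0.05 and by the cyberT-like test; median log2 0.04, summed intensity 62541 to 65587 on the LE arrays, against 61992 to 63461 on the CH arrays). These were the ammonium transporter Rhbg (log2 0.47, SE 0.06, adjusted p = 0.0015), the Wnt receptor partner Lgr5 (log2 0.35, SE 0.05, adjusted p = 0.0028) and glutamine synthetase Glul (log2 0.27, SE 0.06, adjusted p = 0.031), the last not past the threshold without LE2, LE3, CH1 or CH2 (1.21e-05 to 0.113 over all alternatives). Of 6 measured periportal markers, 1 rose and 3 fell (median log2 -0.16, summed intensity 40609 to 42541 on the LE arrays, against 42370 to 43107 on the CH arrays). The sulfotransferase Sult5a1 (log2 -0.34), the histidine ammonia lyase Hal (-0.34) and the aldehyde dehydrogenase Aldh1b1 (-0.31) were lower, and the lipid droplet protein Hsd17b13 was higher (0.31), except without CH1 (adjusted p 7.05e-06 to 0.0613 over all alternatives).

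Car3 is known to be higher in male than in female rodent liver, and of 12 measured genes with that bias, 8 fell and 0 rose on the LE diet (9 and 0 at an unadjusted p under 0.05, 11 and 0 by the cyberT-like test). Their median log2 difference was -0.51, beside -0.23 for Car3, and their summed intensity was 58274 to 59896 on the LE arrays, against 74696 to 76959 on the CH arrays. The lowest were the monooxygenase gene Moxd1 (log2 -1.80, SE 0.15), the steroid enzyme Hsd3b5 (-1.12, SE 0.05), the major urinary protein Mup21 (-1.08, SE 0.10) and the oxysterol hydroxylase Cyp7b1 (-0.66, SE 0.05). Moxd1 had intensities of 135, 95.5 and 146 on the LE arrays. These lay below the median intensity of every array (158 to 163), where differences on this scale are compressed. Hsd3b5 and Mup21 have near-identical copies that can bind the same probes. Car3 is also abundant in muscle and fat. Of 9 skeletal muscle markers 0 passed limma's test, the cyberT-like test or an unadjusted p of 0.05 (median log2 0.03, summed intensity 1249 to 1347 on the LE arrays, against 1231 to 1289 on the CH arrays), and the smallest p was that of the myosin heavy chain Myh4 (log2 -0.11, SE 0.05, adjusted p = 0.260). Of 8 adipocyte markers 1 passed limma's test, the transcription factor Pparg (log2 -0.31, SE 0.07, adjusted p = 0.019), which did not pass without CH1, CH2 or CH3 (3.02e-04 to 0.0591 over all alternatives). The adipocyte sum was 1846 to 1900 on the LE arrays, against 1875 to 1916 on the CH arrays (median log2 0.07).

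Endothelial markers, listed because Car4 is known from capillaries, had 0 of 9 past limma's test (2 lower at an unadjusted p under 0.05 and by the cyberT-like test), with a median log2 difference of 0.00 and a summed intensity of 9064 to 9730 on the LE arrays, against 9601 to 9886 on the CH arrays. The smallest p was that of the scavenger receptor Stab2 (log2 -0.12, SE 0.05, adjusted p = 0.151). Bile duct markers had 0 of 7 past limma's test (1 higher and 1 lower at an unadjusted p under 0.05, 1 lower by the cyberT-like test), with a summed intensity of 1143 to 1214 on the LE arrays, against 1154 to 1218 on the CH arrays. The chloride channel Cftr had the smallest p (log2 -0.34, SE 0.09, adjusted p = 0.0522) and passed in 7 of the 14 alternatives that held it (0.0202 to 0.163). Granulocyte markers had 0 of 10 past limma's test (2 lower at an unadjusted p under 0.05, 1 lower by the cyberT-like test), with a summed intensity of 907.0 to 962 on the LE arrays, against 907.5 to 1007 on the CH arrays. The neutrophil elastase Elane had the smallest p (log2 -0.24, SE 0.07, adjusted p = 0.0777) and passed in 3 of 15 alternatives (0.0297 to 0.187). All 12 Kupffer cell and macrophage markers were higher on the LE diet (median log2 0.39), with a summed intensity of 13104 to 13448 on the LE arrays, against 9718 to 10383 on the CH arrays. Among them Cd68, a lysosomal protein of macrophages, was 1.46-fold higher (log2 0.55, SE 0.05).

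**Figure D5:**
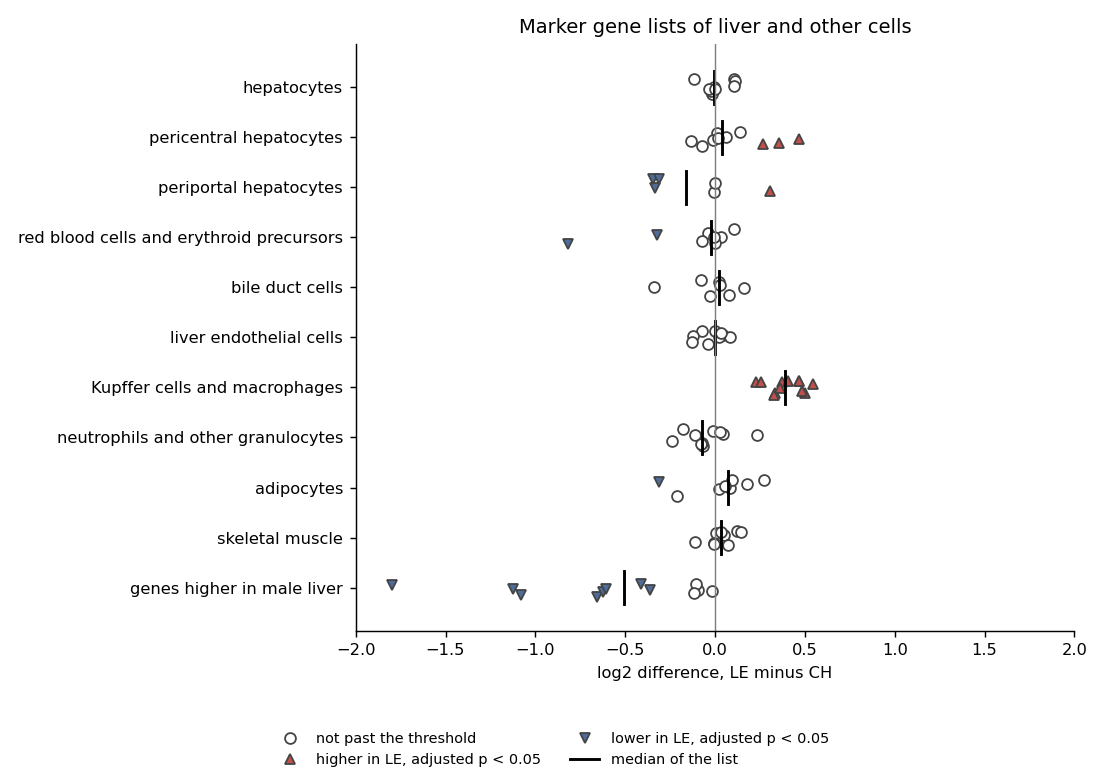
Log2 difference (LE minus CH) of each measured marker gene in 11 lists, with the median of each list as a vertical line; filled triangles are genes past limma's adjusted p of 0.05 and open circles the others. Kupffer cell and macrophage markers lie to the right (median 0.39), genes higher in male liver to the left (median -0.51), and among red cell markers Alas2 (-0.82) lies apart from the rest.

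The genes whose values over the 6 arrays were nearest to those of Car14, by the root mean square distance after each gene was set to a mean of 0, were the dicarboxylate transporter Slc13a2 (distance 0.09 on the log2 scale), the lipid synthesis factor Srebf1 (0.09) and the carboxylesterase Ces1e (0.11). Slc13a2 averaged 6.72 ± 0.04 on the LE diet and 8.23 ± 0.06 on the CH diet (SD, n = 3 each), a difference of -1.52, close in size to the -1.56 of Car14. The LE mean of Slc13a2 lay below the median intensity of every array, where differences on this scale are compressed. The differences of Srebf1 and Ces1e were -1.44 and -1.73. Nearest to Car1 were the uridine phosphorylase Upp2 (distance 0.04), the fat storage protein Fitm1 (0.04) and Hsd3b5 (0.04), with differences of -1.05, -1.03 and -1.12. Hsd3b5 averaged 11.87 ± 0.02 on the LE diet and 13.00 ± 0.01 on the CH diet (SD, n = 3 each). With 2 diets, likeness of this kind mostly follows the size of the diet difference, and it is given as a description.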

How the data were processed

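The deposited values are linear probe set intensities of 6 arrays. How the authors corrected background, normalised or summarised them is not stated; Partek Genomics Suite and cyberT are the programs named in the design text. Trizol served for RNA extraction, per the labels. At most 28 of 35556 probe sets held identical values on a pair of arrays. By the platform annotation 21789 probe sets belong to 1 gene, 1621 to several and 12146 to none; for each of 19938 genes the single-gene probe set with the highest mean was taken. Log2 values were computed here as log2(intensity + 1) from the deposited intensities. Diets were compared over all genes with limma (version 3.58.1, R version 4.3.3), in a two-sided test adjusted by Benjamini-Hochberg at a threshold of 0.05. Adjusted p-values are limma's, but ranges over alternatives take in the cyberT-like test. The number of arrays limits the precision.

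The members and gene lists were chosen with earlier results of these data known. Named genes were the members, the other carbonic anhydrase genes, the 3 genes nearest to Car14 and to Car1 and, per list, at most 4 genes past the threshold by size of difference, or that with the smallest p where none passed; exceptions are said in place. Alternatives were a replicate block, quantile normalisation, centring by median, dropping the dimmest 33.3% of genes, averaging the probe sets of a gene, an intensity trend with robust prior, a regularised test like cyberT's (window 101, prior weight 10), a pseudocount of 16 or none, and dropping each array in turn. In simulated data with 200 of 19938 genes changed, limma recovered 94.0% of log2 changes of 0.5 and 100% of those of 1. It also made 6 calls among the unchanged genes. The noise was normal, at limma's spread for each gene, which is drawn toward that of all genes. Changes under 0.5 were not simulated, so these rates do not cover smaller differences. For scattered genes such as Car5b they may be too high. Other software was Python (3.11.15), with numpy (2.4.6) and pandas (2.3.3) for tables and matplotlib (3.10.9) for plots.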

Additional observations from a re-analysis of the deposited data

How the results depend on the processing

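Car5a was past the threshold in 14 of 15 alternatives, Car5b in 13, Car3 in 10 and Car2 in 8. Car14 and Car1 were past it in all 15, but they were listed for their size in this comparison, so this is no sign of stability. Of the 10 members, 2 were called higher and 4 lower; leaving out 1 array gave 0 to 1 higher and 2 to 4 lower, and the replicate block 1 higher. The replicate numbers share only a number: deviations of same-numbered arrays correlated at -0.02, -0.10 and 0.16. With the replicate block Car2, Car3, Slc26a1, Slc9a7, Mdh1, Egln3 and Klf1 were not past the threshold and Cftr was. Of all genes 1398 were higher and 1012 lower; with the replicate block 657 were lower, with the intensity trend 1560, with the cyberT-like test 1678, and leaving out 1 array 525 to 893. Near 0 the sign turned when 1 array was left out for Car9 (-0.17 to 0.065), Car6 (-0.013 to 0.11), Car7 (-0.0048 to 0.087) and Car10 (-0.056 to 0.057, and 0.017 after quantile normalisation). Among the other carbonic anhydrase genes 1 was lower rather than 0 after quantile normalisation, after centring, without the dimmest 33.3% of genes, with the trend and with the cyberT-like test, and 0 to 1 when leaving out 1 array. Bicarbonate transporters gave 1 lower rather than 0 with the replicate block, quantile normalisation, centring, the trend, the cyberT-like test and a pseudocount of 16, and leaving out 1 array 1 to 3 higher and 0 to 1 lower. Bicarbonate-using enzymes gave 6 lower with the trend and with the cyberT-like test. Urea cycle genes gave 1 higher without the dimmest 33.3%, with the trend and with the cyberT-like test. Gluconeogenesis gave 1 higher after quantile normalisation, after centring, without the dimmest 33.3% and with a pseudocount of 16, 2 higher with the trend and with the cyberT-like test, 1 lower with the replicate block and 0 to 2 lower leaving out 1 array. Proton exchange and lactate transport gave 4 higher without the dimmest 33.3%, with the trend and with the cyberT-like test, 1 with the replicate block and 1 to 2 leaving out 1 array. Hypoxia genes gave 5 higher after quantile normalisation and without the dimmest 33.3%, 4 with the trend, the cyberT-like test and a pseudocount of 16, 1 lower with the replicate block and 1 to 2 lower leaving out 1 array. The dimmest 33.3% of genes held Car4, Car9, Car13, Car6, Car10, Car12, Cftr and Myh4, which had no value in that setting. The cause of these shifts was not tested. Settings that leave arrays or genes out also rest on fewer of them.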
